A study of Mus musculus with 8 samples.

Results

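The Ikaros family of zinc finger transcription factors was followed across donor CD4+ and CD8+ T cells taken from the spleen of transplanted mice. Its members were the rows of the count and RPKM tables whose gene name was Ikzf1, Ikzf2, Ikzf3, Ikzf4 or Ikzf5, and all 5 were found among 25078 gene rows and passed the filter on low counts that left 12428 genes for testing. RNA was sequenced from 8 libraries in 4 groups of 2, namely CD4 cells of WT and of STAT3KO donors and CD8 cells of WT and of STAT3KO donors, all collected on day 6 after hematopoietic cell transplantation (HCT). Donors were C57BL/6 mice, either WT or with both Stat3 alleles floxed and removed by a Cre driven from the Cd4 promoter, so that deletion reached CD4+ and CD8+ T cells alike. All groups shared the host and the marrow: lethally irradiated BALB/c recipients received T cell-depleted bone marrow from WT C57BL/6 mice together with the donor T cells. The sort kept cells positive for H-2Kb, the MHC class I molecule of the donor, and for TCR beta. Each library was made from lymphocytes pooled over 3 recipients, so the spread between the 2 libraries of a group is a spread between pools. The ages of the mice are not given in the sources used here.

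Ikaros proteins bind DNA through zinc fingers near the amino terminus and pair with one another through a further set of fingers at the carboxyl terminus. They are best known as regulators of lymphocyte development, often as repressors that bring the NuRD chromatin remodeling complex to their targets, although they can also keep genes active. Ikaros (Ikzf1) is found throughout the lymphoid lineage. Aiolos (Ikzf3) is prominent in mature B cells and in activated and IL-17-producing T cells, where it restrains Il2, and STAT3 is known both to induce it and to work with it at Bcl6. Helios (Ikzf2) and Eos (Ikzf4) are best known from regulatory T cells (Treg cells), and Pegasus (Ikzf5) is the most divergent member.

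The family likeness is shown here by the zinc finger that carries much of the DNA contact, which is the second finger of Ikzf1 to Ikzf4. It is set beside the first finger of Ikzf5. Counted back from the last amino-terminal finger found, that finger holds the same place as in Ikzf1, Ikzf2 and Ikzf4, but not as in Ikzf3. Each line gives the coding strand from 5′ to 3′, read from GENCODE M21 transcripts on GRCm38, with the codons of the 2 cysteines and 2 histidines that hold the zinc in capitals.
Ikzf1: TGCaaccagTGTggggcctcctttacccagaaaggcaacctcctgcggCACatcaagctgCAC
Ikzf2: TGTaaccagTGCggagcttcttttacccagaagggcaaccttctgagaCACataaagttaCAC
Ikzf3: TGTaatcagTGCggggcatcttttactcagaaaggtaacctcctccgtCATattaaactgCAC
Ikzf4: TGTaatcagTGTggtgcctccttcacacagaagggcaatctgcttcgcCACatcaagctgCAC
Ikzf5: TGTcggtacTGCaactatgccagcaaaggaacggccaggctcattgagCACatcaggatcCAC

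These stretches lie in coding exons at chr11:11754024-11754086 (plus strand, Ikzf1), chr1:69570581-69570643 (minus strand, Ikzf2), chr11:98488940-98489002 (minus strand, Ikzf3), chr10:128640229-128640291 (minus strand, Ikzf4) and chr7:131393759-131393821 (minus strand, Ikzf5). Among Ikzf1 to Ikzf4 the finger was encoded by different bases for the same protein: 48 to 53 of its 63 bases matched in each pair, while 21 of 21 encoded residues were identical. In the Ikzf5 finger, 6 of 21 residues matched the second finger of each other member, while 6 or 7 matched the first finger and 8 or 9 matched the third. A pattern search for fingers of the C2H2 type found 6 in Ikzf1, Ikzf2 and Ikzf4 and 5 in Ikzf3 and Ikzf5. The search required 2 cysteines and 2 histidines at set distances, so a finger that departs from this was not counted. No stretch of 51 bases, the length of the reads, was shared between the transcripts of any 2 members. The longest shared stretch, between Ikzf2 and Ikzf4, had 32 bases, so a read could be told apart between members despite the shared protein sequence.

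As a check of the labels, Stat3 was measured at 428 to 436 CPM (each count as a share of its library's total, adjusted by a TMM size factor) in the 4 WT libraries and at 120 to 143 CPM in the 4 STAT3KO libraries. The 2 ranges did not overlap. Counts are over the whole gene, so they do not show whether the remaining reads lie in the deleted exons. Cd4 was at 1361 to 1602 CPM in the CD4 libraries and at 1.04 to 8.16 CPM in the CD8 libraries. Cd8a was at 819 to 984 CPM in the CD8 libraries and at 1.70 to 16 CPM in the CD4 libraries, and Cd3e was at 576 to 746 CPM in all 8. Total counts ranged from 20171396 to 23282757 per library. In each group the library numbered 2 held more macrophage transcripts, with Csf1r at 11.4 to 18.1 CPM against 0.561 to 2.55 CPM in those numbered 1. Member ratios are therefore given below within each number for the members called in a comparison of 2 groups. The part of the macrophage transcripts in any result was not tested.

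Compared per exon length, as RPKM, the members fell into tiers. Ikzf1 and Ikzf3 were the leading members in every library: Ikzf1 ranged from 170 to 257 RPKM and Ikzf3 from 92.1 to 189 RPKM, levels above those of 94.1% to 98.6% of the genes tested. Ikzf2 and Ikzf5 formed the middle tier, at 5.52 to 25.6 RPKM and 6.93 to 9.98 RPKM. Ikzf4 was the lowest in every library, between 0.202 and 0.702 RPKM. The summed RPKM of the 5 members stayed between 336 and 434 across the 8 libraries.

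The order was not the same in every group. In the CD4 libraries of both genotypes Ikzf2 exceeded Ikzf5 by 2.54 to 3.45 times in RPKM, whereas in the CD8 libraries Ikzf2 reached 0.708 to 0.850 times the level of Ikzf5. Counts of Ikzf5 are uncertain in source, for a reason given below, so its tier and its order against Ikzf2 are uncertain too. Ikzf1 stood above Ikzf3 in 7 of 8 libraries. The exception was STAT3KO CD4 replicate 2, with 170 RPKM for Ikzf1 and 172 RPKM for Ikzf3. In STAT3KO CD4 cells the ranges of Ikzf1 (170 to 192 RPKM) and Ikzf3 (172 to 189 RPKM) overlapped, and these neighbours could not be put in order. In the other 3 groups the ranges of Ikzf1 and Ikzf3 did not overlap.

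**Figure D1:**
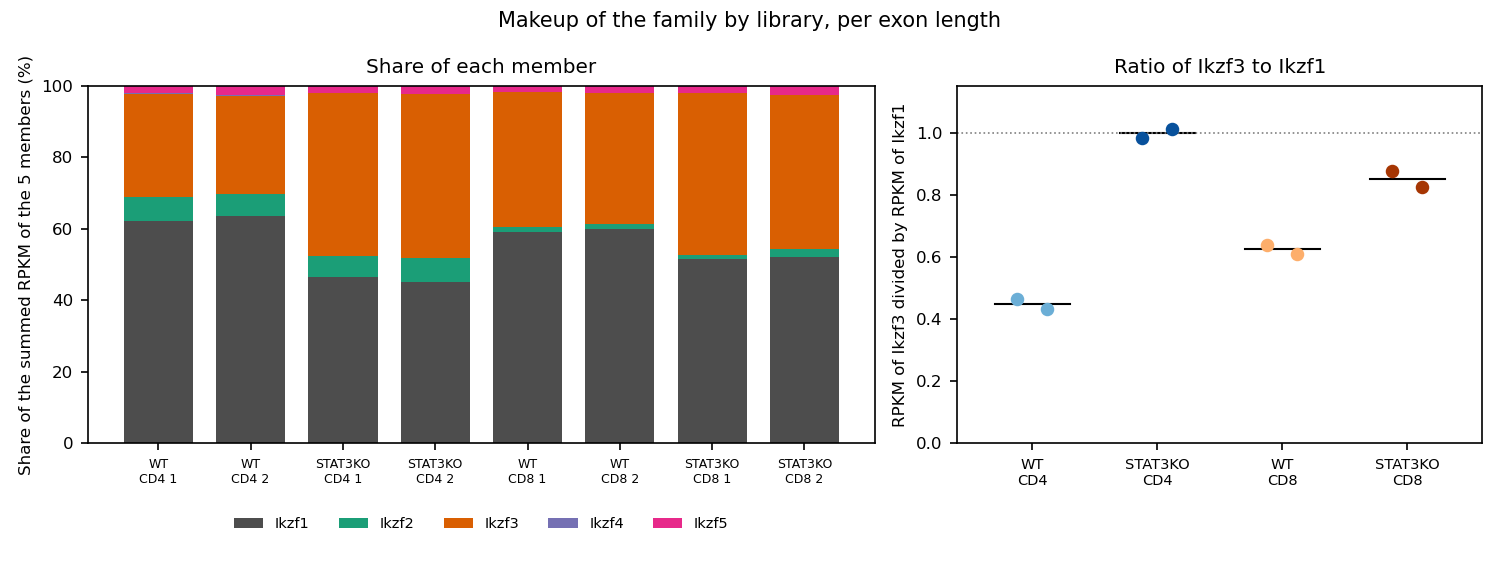
Left, the share of each member in the summed RPKM of the 5 members (%), 1 bar per library. Right, the RPKM of Ikzf3 divided by that of Ikzf1 in each library (points) with the group mean (line). Ikzf1 held 63.0% of the sum in WT CD4 but 45.8% in STAT3KO CD4 cells, and the ratio of Ikzf3 to Ikzf1 was lowest in WT CD4 and close to 1 in STAT3KO CD4.

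The ratio of Aiolos to Ikaros was higher without STAT3 in both lineages. The RPKM ratio of Ikzf3 to Ikzf1 was 0.465 and 0.431 in the 2 WT CD4 libraries and 0.983 and 1.01 in the 2 STAT3KO CD4 libraries. The CD8 libraries gave 0.638 and 0.611 with STAT3 and 0.878 and 0.826 without it. In both lineages each STAT3KO library lay above each WT library, and all 4 groups were separate. The share of Ikzf3 in the family's summed RPKM was 28.2% ± 1.08 in WT CD4 against 45.7% ± 0.0406 in STAT3KO CD4, and 37.2% ± 0.791 in WT CD8 against 44.2% ± 1.46 in STAT3KO CD8 (SD, n = 2 each). These ratios and shares are given as a description with no test.

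The first question of the design was what loss of STAT3 does in CD4+ T cells. In STAT3KO CD4 cells Ikzf3 rose to 1.81 times its WT level and Ikzf4 fell to 37.4% of it, while Ikzf1, Ikzf2 and Ikzf5 did not pass the test. Thus 2 of 5 members were called at an adjusted p under 0.05 by edgeR's quasi-likelihood test with Benjamini-Hochberg adjustment over all genes, 1 in each direction, where 11.6% of all genes tested were called. The median log2 fold change was 0.07 over the members and 0.02 over all genes tested.

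**Figure D2:**
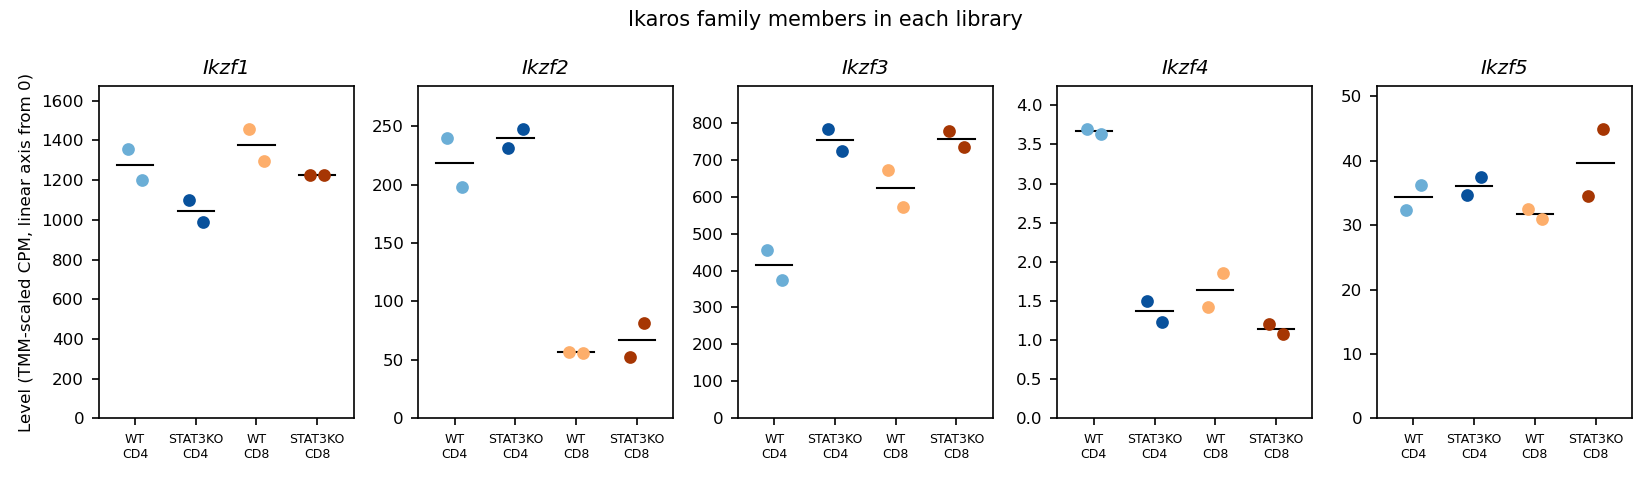
Level of each member in each library, as TMM-scaled CPM on linear axes that start at 0, with a point per library and a line at the group mean of 2 libraries. Ikzf2 sits at 198 to 247 CPM in the CD4 libraries and at 52.4 to 81.9 CPM in the CD8 libraries, and the WT CD4 libraries stand apart as the lowest for Ikzf3 and the highest for Ikzf4.

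Ikzf3 (Aiolos; chr11:98464693-98546031, minus strand) was measured at 456 and 374 CPM in WT CD4 and at 782 and 723 CPM in STAT3KO CD4. The WT CD4 libraries were the lowest of all 8, and the 2 genotypes did not overlap in this lineage. The log2 fold change was 0.86 ± 0.13 (SE, 2 against 2 libraries), a 1.81-fold rise with a 95% interval of 1.46 to 2.25 and an edgeR adjusted p of 0.00748. Among libraries of the same number the log2 ratio was 0.78 for those numbered 1 and 0.95 for those numbered 2. The call was lost without STAT3KO CD4 replicate 1, with a log2 fold change of 0.78 and an adjusted p of 0.0666, and held when any other single library was left out. Since B cells are rich in Aiolos, their markers are given beside it: Ms4a1 and Cd79a were at 0 to 0.337 CPM in every library. The summed level of the 8 B cell markers analysed, 103 to 124 CPM in WT against 152 to 171 CPM in STAT3KO CD4 cells, was mostly Cd22, at 91.7 to 106 and 149 to 168 CPM. Of the 3 B cell markers that could be tested, Cd79b was called higher (log2 fold change 1.098, edgeR adjusted p = 0.0206) and Pax5 lower (-5.19, edgeR adjusted p = 0.00159). Over all genes tested, 11.6% were called.

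Ikzf4 (Eos; chr10:128630843-128645993, minus strand) was a low gene throughout, with 24 to 77 reads per library. It was measured at 3.69 and 3.64 CPM in WT CD4 and at 1.501 and 1.23 CPM in STAT3KO CD4. The WT CD4 libraries were the highest of all 8 and lay close to each other. The log2 fold change was -1.42 ± 0.30 (SE, 2 against 2 libraries), leaving 37.4% of the WT level with an interval of 0.231 to 0.605 in fold, and the edgeR adjusted p was 0.0230. The within-number log2 ratios were -1.30 and -1.56. Its call rested on each of the 4 CD4 libraries: the log2 fold change was -1.44 without WT CD4 replicate 1 or without WT CD4 replicate 2, -1.59 without the first STAT3KO CD4 library and -1.29 without the other, with adjusted p between 0.0712 and 0.145. On the log2(RPKM + 1) scale, which understates changes of low genes, the difference was -0.44 and still called.

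Ikzf1 (Ikaros; chr11:11685925-11772926, plus strand) was measured at 1358 and 1199 CPM in WT CD4 and at 1100.1 and 988 CPM in STAT3KO CD4. Both STAT3KO libraries were below both WT libraries, but the difference did not pass the test over all genes (log2 fold change -0.29 ± 0.11, SE; edgeR adjusted p = 0.125; unadjusted, 0.0261). Ikzf2 (Helios; chr1:69531210-69685960, minus strand) was at 240 and 198 CPM in WT CD4 and at 232 and 247 CPM in STAT3KO CD4. These ranges overlapped, and the log2 fold change of 0.13 had an interval of -0.32 to 0.59. Ikzf5 (Pegasus; chr7:131388649-131410478, minus strand) was at 32.4 and 36.2 CPM in WT CD4 and at 34.7 and 37.4 CPM in STAT3KO CD4, with a log2 fold change of 0.07 and an interval of -0.26 to 0.41.

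Counts of Ikzf5 are uncertain in source. Of the 4430 bases of its principal transcript in GENCODE M21, 3575 (80.7%) lie within exons of Pstk on the opposite strand, and the strand setting of the counting is not given in the sources used here. Pstk itself had 288 to 511 reads per library. The overlaps of Ikzf2 and Ikzf4 were small, at 144 and 37 exon bases shared with noncoding genes on the other strand. Ikzf1 and Ikzf3 shared no exon base with another gene.

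**Figure D3:**
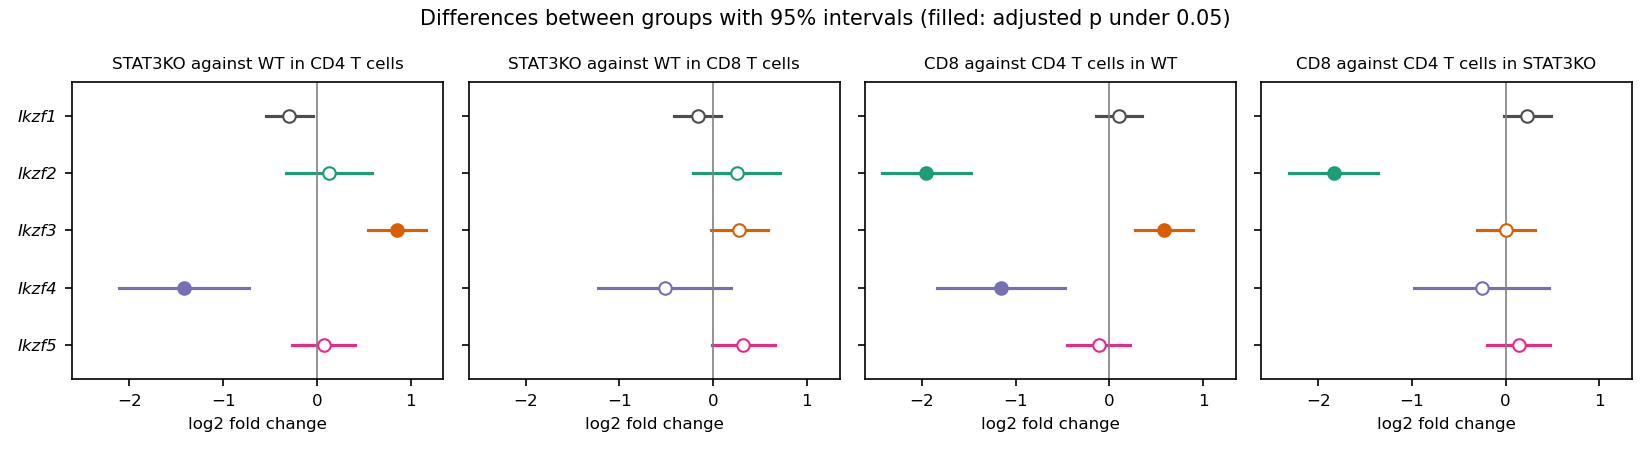
Log2 fold change (x axis) of each member (y axis) in 4 comparisons, with lines for 95% intervals from the edgeR fit and filled points for an adjusted p under 0.05. Ikzf2 is near -1.95 and -1.83 in both comparisons of CD8 against CD4 cells, and Ikzf3 and Ikzf4 are called in the 2 comparisons that contain the WT CD4 libraries.

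The second question was the effect of STAT3 loss in CD8+ T cells. None of the 5 members was called by the edgeR test, where 2.07% of all genes tested were. At an unadjusted edgeR p under 0.05 the count was also 0 of 5, where 2400 of 12428 genes passed. DESeq2 called 0 of 5, where it called 7.48% of the genes with an adjusted p. The median log2 fold change was 0.25 over the members and -0.01 over all genes tested. Ikzf3 was at 672 and 573 CPM in WT CD8 and at 779 and 734 CPM in STAT3KO CD8. Its ranges did not overlap, and the log2 fold change was 0.28 with an interval of -0.03 to 0.59 (adjusted p = 0.301). Ikzf4 was at 1.43 and 1.85 CPM in WT CD8 and at 1.21 and 1.08 CPM in STAT3KO CD8, a log2 fold change of -0.52 with an interval of -1.23 to 0.19.

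The other 3 members gave no call in CD8 cells either. Ikzf1 was at 1456 and 1296 CPM in WT CD8 and at 1226 and 1228 CPM in STAT3KO CD8, without overlap, with a log2 fold change of -0.17 (adjusted p = 0.460). Ikzf2 was at 57.0 and 55.9 CPM in WT CD8 and at 52.4 and 81.9 CPM in STAT3KO CD8. The 2 STAT3KO CD8 libraries lay on either side of the WT values, and the log2 fold change of 0.25 became -0.12 without STAT3KO CD8 replicate 2. Ikzf5 was at 32.5 and 30.9 CPM in WT CD8 and at 34.5 and 44.9 CPM in STAT3KO CD8, with a log2 fold change of 0.32 and an interval of -0.01 to 0.66.

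The difference between the 2 effects was tested itself, as an interaction in the same fit. No member was called, where 0% of all genes tested were called (0 genes, with 982 at an unadjusted p under 0.05). The effect on Ikzf3 was smaller in CD8 than in CD4 cells by 0.58 on the log2 scale (interval -1.01 to -0.14), with an edgeR p of 0.0162 and an adjusted p of 0.445. For Ikzf4 the difference was 0.90 with an interval of -0.09 to 1.89. DESeq2 called none of the 4 members for which it gave an adjusted p, and gave none for Ikzf4. It called 1.75% of all genes with an adjusted p.

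Averaged over both lineages, the STAT3KO effect on Ikzf3 was a log2 fold change of 0.57 ± 0.09 (SE, 4 against 4 libraries; edgeR adjusted p = 0.00692). It was called with any single library left out. Whether CD4 and CD8 libraries of the same genotype and number came from the same pools is not given in the sources used here. If they did, the comparison is of 2 against 2 pools. The effect on Ikzf4 was -0.97 ± 0.21 (edgeR adjusted p = 0.0191). It lost its call without WT CD4 replicate 2, STAT3KO CD4 replicate 2, WT CD8 replicate 2, STAT3KO CD8 replicate 1 or STAT3KO CD8 replicate 2, at values of -0.88 to -1.01 and adjusted p of 0.0511 to 0.0713. These 2 were the members called, against 19.3% of all genes tested. Ikzf1 gave -0.23 with an adjusted p of 0.0719, and was called under 3 alternatives, among them unscaled total counts (-0.26, adjusted p = 0.0304) and DESeq2 (-0.24, adjusted p = 0.0405). Ikzf2 and Ikzf5 gave 0.19 and 0.20.

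The third question was how CD8+ cells differ from CD4+ cells within a genotype. Ikzf2 was lower in CD8 cells in both genotypes and was the member with the widest range over groups, 2.08 on the log2 scale. In WT cells 3 of 5 members were called, where 23.8% of all genes tested were. Ikzf2 in WT CD8 cells was at 25.8% of its WT CD4 level (log2 fold change -1.95 ± 0.20, SE, 2 against 2 libraries; edgeR adjusted p = 0.000602). In STAT3KO cells it was at 28.1% (-1.83 ± 0.20, SE; edgeR adjusted p = 0.00214) and was the 1 member called, where 12.5% of all genes tested were. Within-number log2 ratios of Ikzf2 were -2.07 and -1.82 in WT and -2.14 and -1.59 in STAT3KO cells. Each of the 4 CD4 libraries (198 to 247 CPM) stood well above each of the 4 CD8 libraries (52.4 to 81.9 CPM). This call held with any single library left out.

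In WT cells Ikzf3 was 1.498 times as high in CD8 as in CD4 (log2 fold change 0.58 ± 0.13, SE; edgeR adjusted p = 0.0172) and Ikzf4 was at 44.8% (-1.16 ± 0.29, SE; edgeR adjusted p = 0.0263). The WT CD4 libraries enter these contrasts and also that of STAT3KO against WT in CD4 cells, so the values are not independent of those above. Within-number log2 ratios in WT cells were 0.56 and 0.61 for Ikzf3 and -1.37 and -0.97 for Ikzf4. The call of Ikzf3 was lost without WT CD4 replicate 2 (0.43, adjusted p = 0.0963) and without WT CD8 replicate 1 (0.45, adjusted p = 0.121). That of Ikzf4 was lost without any 1 of the 4 WT libraries (-0.999 to -1.37, adjusted p from 0.0554 to 0.143). In STAT3KO cells the CD8 values of Ikzf3 (779 and 734 CPM) overlapped the CD4 values (782 and 723 CPM), with a log2 fold change of 0.01, with an interval of -0.30 to 0.32. Ikzf4 showed -0.26 with an interval of -0.97 to 0.46. Ikzf1 and Ikzf5 were called in neither genotype, with log2 fold changes of 0.11 and -0.11 in WT and of 0.23 and 0.14 in STAT3KO cells.

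Helios and Eos were next read beside the markers of Treg cells, the cells in which both are best known. In bulk RNA, fewer cells of a type and less RNA per cell cannot be told apart. Foxp3, which defines Treg cells, was at 10.3 to 20.8 CPM in all 8 libraries, with its 2 highest values in STAT3KO CD4 replicate 2 and STAT3KO CD8 replicate 2. Its log2 fold change with STAT3 loss was 0.35 in CD4 cells (adjusted p = 0.473) and 0.40 in CD8 cells (adjusted p = 0.479). Il2ra, a chain of the IL-2 receptor, was at 68.8 to 97.1 CPM in CD4 and 119 to 165 CPM in CD8 libraries. None of the 10 Treg markers was called with STAT3 loss in CD4 cells (11.6% of all genes tested) or in CD8 cells (2.07%). The summed level of the list was 2119 to 2461 CPM in WT CD4 against 1821 to 2406 CPM in STAT3KO CD4, with 1524 to 1689 CPM in WT CD8 against 1417 to 1931 CPM in STAT3KO CD8, most of it from Ctla4.

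Between the lineages in WT cells, where Ikzf2 and Ikzf4 were lower in CD8, 5 of 10 Treg markers were lower and 5 were higher. Of these, 4 were called lower and 2 called higher, where 23.8% of all genes tested were called. Those with the smallest p were Tnfrsf4 (OX40, a costimulatory receptor; log2 fold change -2.51), Capg (a capping protein of actin filaments; 0.78), Tnfrsf18 (GITR; -0.84) and Il2ra (0.92). In STAT3KO cells 6 of 10 were lower and 4 higher. Only 3 were called, all of them lower, where 12.5% of all genes tested were called. They were Tnfrsf18 (-0.96), Tnfrsf4 (-2.73) and Lrrc32 (-2.03), which presents latent TGF-beta. Averaged over lineages, 2 of 10 were called, both lower in STAT3KO cells, where 19.3% of all genes tested were called. They were Tnfrsf4 (-0.68) and Gpr83 (-2.41), an orphan receptor with under 2 CPM in every library. The part of Treg cells in the levels of Ikzf2 and Ikzf4 was not tested.

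Among the partners through which Ikaros proteins act, all 14 NuRD genes were tested. None was called with STAT3 loss in CD4 cells (11.6% of all genes tested), in CD8 cells (2.07%) or averaged over both (19.3%), with log2 fold changes between -0.26 and 0.27 in CD4 cells and median values of -0.04 in CD4 and in CD8 cells. Between lineages 2 of 14 were called in each genotype, where 23.8% of all genes tested were called in WT and 12.5% in STAT3KO cells. Chd3, a remodeling ATPase of the complex, was lower in CD8 cells (-1.08 in WT, adjusted p = 0.00285; -0.995 in STAT3KO, adjusted p = 0.00866). Its levels were 393 to 515 CPM in CD4 and 207 to 255 CPM in CD8 libraries. Rbbp7, a histone-binding subunit, was higher in CD8 cells (0.67 in WT, adjusted p = 0.00355; 0.47 in STAT3KO, adjusted p = 0.0266). Chd4, the ATPase most often copurified with Ikaros, was at 566 to 782 CPM in all libraries and was called in no comparison. Of 8 other cofactor genes, from the CtBP, Sin3 and SWI/SNF groups, 7 were tested and none was called in any comparison. Ctbp2 was not tested, with at most 12 reads in a library.

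Cereblon, the substrate receptor of the CRL4 ubiquitin ligase that drugs such as lenalidomide turn against Ikaros and Aiolos in human cells, was also examined. Crbn was at 171 to 237 CPM and was called in no comparison. Of the 5 genes of this ligase none was called with STAT3 loss in CD4 cells (11.6% of all genes tested) or in CD8 cells (2.07%). The scaffold Cul4b was called higher when averaged over lineages (0.36, edgeR adjusted p = 0.0167), where 19.3% of all genes tested were called. Its close relative Cul4a was called lower in CD8 than in CD4 cells of WT donors (-0.41, edgeR adjusted p = 0.0169), where 23.8% were.

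Of 12 genes that the literature links to Ikaros proteins in T cells, 11 were tested. In CD4 cells 8 were higher and 3 lower without STAT3. Of these, 2 were called higher and 1 called lower, where 11.6% of all genes tested were called. Bcl6, the regulator of follicular helper cells, fell from 114 and 90.3 CPM in WT CD4 to 21.1 and 23.0 CPM in STAT3KO CD4 (log2 fold change -2.21 ± 0.24, SE; edgeR adjusted p = 0.00217). Prdm1 (Blimp-1), known to oppose Bcl6, rose from 81.6 and 55.7 CPM to 140.2 and 122 CPM (0.94 ± 0.19, SE; edgeR adjusted p = 0.0192). Il10 rose from 64.0 and 38.2 CPM to 139.5 and 149.8 CPM (1.502, adjusted p = 0.0178). The median over the 11 genes was 0.35. In CD8 cells Bcl6 was the 1 gene called, where 2.07% of all genes tested were. Bcl6 was at 9.94 and 13.5 CPM in WT and 2.31 and 4.15 CPM in STAT3KO CD8 (-1.85, edgeR adjusted p = 0.0257). Prdm1 was not called in CD8 cells (0.02, edgeR adjusted p = 0.969).

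Il2, Ifng and Tbx21 were not called with STAT3 loss in either lineage. Il2, which Aiolos and Ikaros restrain in other settings, was at 5.29 and 3.59 CPM in WT CD4 and at 3.05 and 2.92 CPM in STAT3KO CD4 (log2 fold change -0.57, adjusted p = 0.506). It had 1 to 7 reads in each CD8 library. Ifng was at 235 to 411 CPM in CD4 and 381 to 656 CPM in CD8 libraries, with a log2 fold change of 0.16 in CD4 (adjusted p = 0.780) and -0.35 in CD8 cells (adjusted p = 0.590). Tbx21 (T-bet), repressed by Ikaros in type 2 helper cells, gave 0.98 in CD4 (adjusted p = 0.233) and 0.26 in CD8 cells (adjusted p = 0.835), with a wide spread within each group.

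Averaged over lineages, Il10 (1.33), Il7r (0.57) and Prdm1 (0.48) were called higher and Bcl6 (-2.03) lower in STAT3KO cells. Over all genes tested, 19.3% were called. Il7r, the receptor for a survival cytokine, was at 576 and 703 CPM in WT against 994 and 939 CPM in STAT3KO CD4 cells, with 288 and 384 CPM against 526 and 455 CPM in CD8 cells. Between lineages in WT cells 6 of the 11 genes were higher and 5 lower in CD8. Of these, 2 were called higher and 3 called lower, where 23.8% of all genes tested were called. Prdm1 (1.21) and Il2ra (0.92) were called higher, and Bcl6 (-3.12), Il2 (-4.65) and Il7r (-0.93) were called lower. In STAT3KO cells 4 were called lower in CD8, where 12.5% of all genes tested were called. They were Bcl6 (-2.76), Il2 (-3.51), Il7r (-0.98) and Dtx1 (-1.33), a regulator of Notch signaling.

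Proliferation genes were, like Ikzf3, lowest in WT CD4 cells and higher there without STAT3. In CD4 cells 10 of 10 were higher without STAT3 and 9 of them were called, where 11.6% of all genes tested were. The smallest p belonged to Ccnb2, Birc5, Cdk1 and Bub1 (log2 fold changes 1.18, 1.11, 1.14 and 1.40), and the median over the list was 1.17. In CD8 cells none of 10 was called (median 0.27), where 2.07% of all genes tested were. Between lineages 10 of 10 were higher in CD8 cells in each genotype. Of these, 10 were called in WT cells (23.8% of all genes tested) and 6 in STAT3KO cells (12.5%). The summed level of the list was 1135 to 1505 CPM in WT against 2806 to 2981 CPM in STAT3KO CD4 cells, with 3232 to 4268 CPM against 4736 to 4930 CPM in CD8 cells. The order of the other groups was not that of Ikzf3, which was lower in WT CD8 than in STAT3KO CD4 cells and overlapped between the lineages of STAT3KO donors. The part of cell division in the level of Ikzf3 was not tested.

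Markers of other cells were read for the same reason. NK cell markers were likewise lowest in WT CD4 cells, with summed levels of 86.3 to 98.5 CPM in WT against 226 to 245 CPM in STAT3KO CD4 cells, with 427 to 504 CPM against 633 to 803 CPM in CD8 cells. Of 6 tested, Klrk1, Eomes and Klrd1 were called higher in STAT3KO CD4 cells (2.72, 2.03 and 1.13), where 11.6% of all genes tested were called. Klrk1 was called higher in STAT3KO CD8 cells (0.79), where 2.07% were. Ncr1, which defines NK cells, was at 0 to 0.250 CPM in every library. Klrb1c was at 14.1 to 26.4 CPM, Fcer1g at 2.25 to 21.2 CPM and Tyrobp at 0.432 to 4.21 CPM. Klrk1, Eomes and Klrd1 are also made by activated T cells, and the part of NK cells in these levels was not tested. No macrophage, erythroid or neutrophil marker was called with STAT3 loss in CD4 cells (11.6% of all genes tested) or in CD8 cells (2.07%). Of 4 plasmacytoid dendritic cell markers tested, Ccr9 was the 1 called in STAT3KO CD4 cells (1.62), where 11.6% of all genes tested were called. Bst2, Tcf4 and Irf8 were at 22.7 to 114 CPM, and Siglech, which defines plasmacytoid dendritic cells, had no read in any library. Of 9 T cell markers, Thy1 was the 1 called in STAT3KO CD4 cells (0.34), where 11.6% of all genes tested were called. No CD4 or CD8 lineage marker was called between genotypes in CD4 cells (11.6% of all genes tested), in CD8 cells (2.07%) or averaged over both (19.3%).

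Group means of 2 members, Ikzf2 and Ikzf4, differed by 1 or more on the log2 scale, and for these the genes with the most similar levels over the 8 libraries were sought among those at a mean log2 CPM of 3 or more. For Ikzf2, of 8757 genes compared, the closest were Cish, an inhibitor of cytokine signaling (root-mean-square difference 0.152 on the log2 scale), Casp4, an inflammatory caspase (0.189), and Tnf, a cytokine (0.225). Mean levels of Cish were 25.6 and 29.6 CPM in WT and STAT3KO CD4 and 7.86 and 8.12 CPM in WT and STAT3KO CD8, so that Cish, like Ikzf2, was lower in CD8 cells. For Ikzf4, of 8758 genes, the closest were Als2cl (0.0945), Rapgef5, an exchange factor for Rap GTPases (0.132), and Stat5a, which transmits signals of common gamma chain cytokines (0.150). Mean levels of Stat5a were 197 CPM in WT against 79.3 CPM in STAT3KO CD4 cells, with 107 CPM against 76.8 CPM in CD8 cells. In GENCODE M21, 72 of the 7133 exon bases of Stat5a are shared with Stat3, the deleted gene. The part of this overlap in the Stat5a levels was not tested. The points of these profiles share libraries and their depth, and likeness over 4 groups says nothing of shared control.

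**Figure D4:**
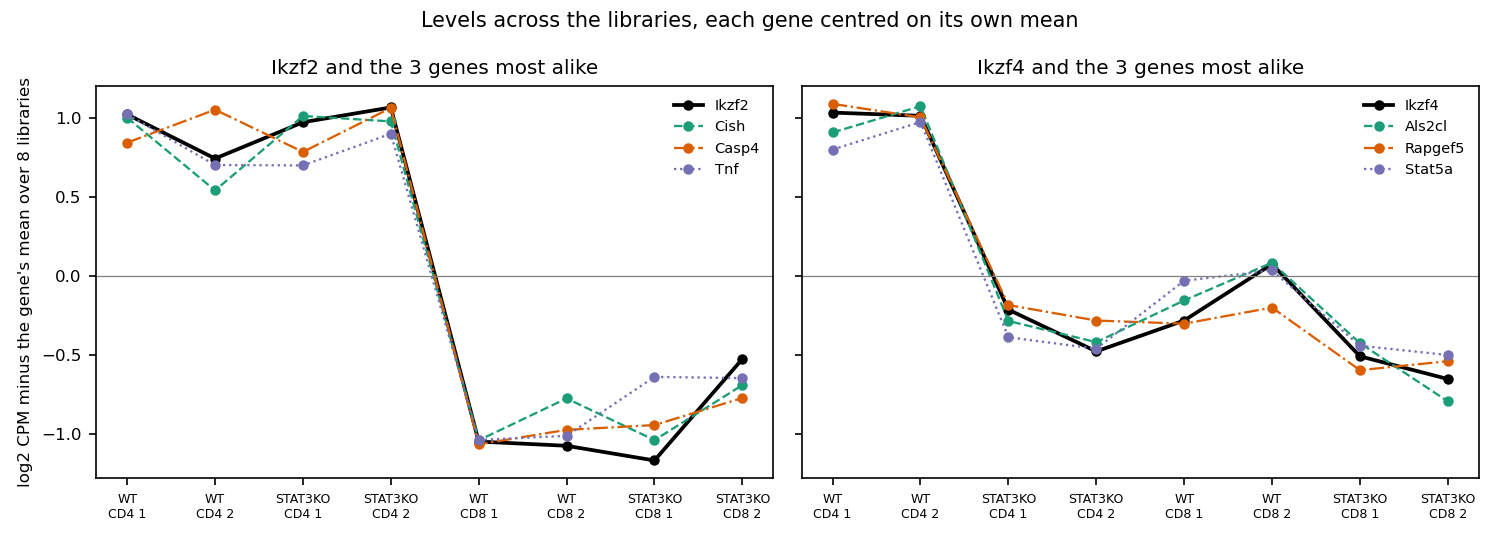
Log2 CPM minus each gene's own mean over the 8 libraries (y axis) in each library (x axis), for Ikzf2 and Ikzf4 (black) and the 3 genes closest to each. Ikzf2 and its 3 genes drop between the CD4 and CD8 libraries, whereas Ikzf4 and its 3 genes are highest in the 2 WT CD4 libraries.

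Promoters of 300 bases, from RefSeq on GRCm38.p6, matched Ikzf1 (2 start sites) and Ikzf5, and those of Ikzf2, Ikzf3 and Ikzf4 were not used here. The STAT motif TTCNNNGAA, searched on both strands, was in 8.3% of 32851 promoters of that length. It occurred once at 1 of the 2 Ikzf1 start sites and once in the Ikzf5 promoter. The Ikaros core TGGGAA, searched the same way, was in 25.6% of all promoters and in none of these 3.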

How the data were processed

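Donor T cells of the spleen were sequenced in 8 libraries, 2 per group, as 51-base single-end reads. Per the study's methods the authors aligned reads to mm10 with STAR and counted them with HTSeq on RefSeq genes. The authors deposited raw counts per gene and RPKM values, which scale reads by exon length and library size. The methods name a KAPA stranded kit and the labels a SMARTER kit, and the strand setting of counting is not given in the sources used here. Label text on growth and treatment describes other cells and was not used.

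Counts were tested with edgeR 4.0.16 (R 4.3.3): filterByExpr with a minimum count of 10, TMM size factors, 1 quasi-likelihood fit of all 8 libraries and 6 contrasts, with Benjamini-Hochberg adjustment over 12428 genes and calls at an adjusted p under 0.05. Standard errors and 95% intervals came from the same fit. With 2 libraries against 2, an exact permutation test cannot go below p = 0.333. Libraries of a group differed by more than counting noise (chi-square per degree of freedom 23.0 to 65.9), so the 2 were not one and the same set of reads. All p-values measure the spread between pools of 3 recipients. The fit treated CD4 and CD8 libraries as independent, also between lineages and in the average over them. They may share pools of recipients, which the sources used here do not say. Alternatives were RLE size factors, total counts, no filter, DESeq2 1.42.0, the replicate number as a block, the 4 libraries of a comparison alone, limma 3.58.1 on log2(RPKM + 1) and log2(RPKM + 0.1), and each library left out. The scripts were tested on simulated data. Levels between genes were compared as RPKM only. Genome coordinates and exons came from the deposited tables and GENCODE M21.

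The members and the lists of partners, linked genes, cell markers and proliferation genes were chosen with earlier results of these data known. Beyond the members, the text names checks of the labels, from each list up to 4 called genes per comparison by smallest p, and 7 linked genes (Bcl6, Prdm1, Foxp3, Il2ra, Il2, Ifng and Tbx21) with their values in any case. Csf1r, Ms4a1, Cd79a, Cd22, Ncr1, Klrb1c, Fcer1g, Tyrobp, Siglech, Bst2, Tcf4, Irf8, Ctla4, Chd4, Crbn, Ctbp2 and Pstk were named after their values were seen. A further B cell marker is not reported here.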

Additional observations from a re-analysis of the deposited data

How the results depend on the processing

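Of 469 values of single members under the alternatives, 433 kept direction and side of the threshold, 18 lost a call, 6 gained one and 12 changed sign. Ikzf2 between lineages kept its call in both genotypes under every alternative run, as did Ikzf3 averaged over lineages.

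With the replicate block, members called rose from 0 to 1 for STAT3KO against WT in CD8 cells (Ikzf3, 0.29, adjusted p = 0.0369) and from 0 to 1 for the difference between lineages (Ikzf3, -0.58, adjusted p = 0.0257), and Ikzf1 was called in STAT3KO CD4 cells (-0.29, adjusted p = 0.0221) and averaged over lineages (-0.23, adjusted p = 0.0108). The replicate block also raised calls over all genes: to 3747 from 1444 for STAT3KO in CD4, 2258 from 257 in CD8, 4874 from 2399 averaged, 403 from 0 for their difference, 5232 from 2960 between lineages in WT and 3689 from 1555 in STAT3KO cells. Deviations of same-numbered libraries correlated at 0.424 to 0.671 over 12428 genes in all 6 pairs of groups, but the labels do not say that the number marks a batch, so the block stays an alternative.

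With the 4 WT libraries alone, 1 member was called between lineages in place of 3: Ikzf3 (0.60, adjusted p = 0.0618) and Ikzf4 (-1.14, adjusted p = 0.0605) were not. With each library left out in turn, members called ranged from 0 to 2 for STAT3KO in CD4, from 1 to 2 averaged and from 1 to 3 between lineages in WT. Values that changed sign, none of them called, ranged when a library was left out from -0.011 to 0.25 for Ikzf2 and from -0.033 to 0.14 for Ikzf5 (STAT3KO in CD4), from -0.12 to 0.54 for Ikzf2 (STAT3KO in CD8), from -0.0045 to 0.33 for Ikzf2 (averaged), from -0.23 to 0.41 for Ikzf2 (difference between lineages), and from -0.066 to 0.064 for Ikzf3 and from -0.066 to 0.31 for Ikzf5 (CD8 against CD4 in STAT3KO). With total counts the last Ikzf3 value was -0.00046. Over all genes, other alternatives moved calls by more than 1.5 times for STAT3KO in CD8 (844 with DESeq2, 454 without the filter, 37 with the 4 libraries) and between lineages in WT (1919 with the 4 libraries). With each library left out, calls over all genes ranged from 412 to 1307 for STAT3KO in CD4, 7 to 224 in CD8, 1214 to 2165 averaged, and 1546 to 2598 and 457 to 1554 between lineages in WT and STAT3KO cells, so the shares of genes called move with single libraries. Calls for the difference between lineages were 180 with DESeq2, 44 without the filter and 13 with log2(RPKM + 1).

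Depth limits Ikzf4, with 24 to 77 reads per library; counting intervals cover counting error only.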
